A study of Mus musculus with 9 samples.

Results

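The probes described are the 35803 oligonucleotides whose names start with mmu_, taken from the 91188 non-control probes of a custom Agilent array. They were chosen by that name alone, among spots that the scanner files do not mark as controls, and the spots of each name were averaged. The array measured messenger and long non-coding RNA in the stomach of mice of the C57 strain. The stomach received X-rays at 0 Gy (mock), 6 Gy or 12 Gy at 2 Gy per minute, and tissue was taken 7 days later. Each dose has 3 samples, each on its own single-colour array, so there are 9 arrays. The labels number the samples and speak of a mouse for each, but give no age or sex, and every p-value covers only the spread between these samples. The labels name no allele and no other agent that separates the groups, and give ketamine and xylazine anaesthesia for all animals.

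The names carry 4 endings, which set the probes apart in sub-series: PI428960544 on 33763 probes, PI428990136 on 1224, PI428994341 on 456 and PI428980890 on 360. In the text a name without an ending has PI428960544. Every probe is 60 bases long, no sequence occurs more than once among them, and none is identical to a probe of the other name series. All but 20 have 2 spots on each array, and those 20 have 10. The files repeat the probe name in place of a gene name and give no genome position, so what each probe was designed for is not stated. The arrays lie on 3 slides, scanned separately: mock replicate 1 on slide 1, mock replicates 2 and 3 with 6 Gy replicates 1 and 2 on slide 2, and 6 Gy replicate 3 with the 12 Gy arrays on slide 3. No slide holds both mock and 12 Gy arrays. With slide as a fixed block, 12 Gy against mock therefore rests on 6 Gy replicate 3, the only other array on slide 3.

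Long non-coding RNAs are transcripts that code for no protein. Many are spliced and polyadenylated like messenger RNA, many are present in few copies in a tissue, and they include antisense and divergent transcripts that start beside protein-coding genes as well as precursors of microRNAs. Ionizing radiation damages the dividing cells of the gastric epithelium, and the tissue then goes through cell loss and repair. On this kind of array the labelled cRNA is the complement of the RNA, so a probe carries the RNA's own letters and reports 1 strand only.

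Levels are log2 processed intensity minus the log2 of the array's 75th percentile, so 0 is the 75th percentile of that array's spots. They compare a probe between arrays and do not rank transcripts, since each probe binds its target with its own efficiency.

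Several sets of sequences carry what the values below show. The 5 probes with the highest mean level are shown first, with G and C in capitals because detection changed with the share of G and C.
mmu_28767_PI428960544: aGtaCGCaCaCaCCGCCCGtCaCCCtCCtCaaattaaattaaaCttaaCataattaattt
mmu_7788_PI428960544: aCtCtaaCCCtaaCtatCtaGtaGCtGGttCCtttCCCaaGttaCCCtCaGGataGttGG
mmu_19007_PI428960544: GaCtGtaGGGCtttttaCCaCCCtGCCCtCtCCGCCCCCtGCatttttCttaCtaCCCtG
mmu_33686_PI428960544: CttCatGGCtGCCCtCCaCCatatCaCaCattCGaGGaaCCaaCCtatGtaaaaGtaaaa
mmu_18404_PI428960544: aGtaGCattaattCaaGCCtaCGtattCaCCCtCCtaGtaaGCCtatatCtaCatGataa

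The next 4 share a stretch with many other mmu probes, and they are the brightest 2 of each of the families that hold the most widely shared stretches. Capitals mark the 16 shared bases.
mmu_854_PI428960544: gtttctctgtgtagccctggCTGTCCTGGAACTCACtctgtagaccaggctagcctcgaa
mmu_1374_PI428960544: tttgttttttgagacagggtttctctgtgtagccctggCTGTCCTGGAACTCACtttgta
mmu_4078_PI428960544: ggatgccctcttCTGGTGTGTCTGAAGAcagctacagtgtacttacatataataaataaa
mmu_16761_PI428960544: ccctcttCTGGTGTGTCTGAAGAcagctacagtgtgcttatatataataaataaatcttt

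Probes that read opposite strands of the same bases show whether signal is strand-specific. The first pair are exact reverse complements, with capitals on the 12 bases at the matching ends, and the second pair overlap upstream of Pfn1, with capitals on the 41 bases they have in common.
mmu_60_PI428960544: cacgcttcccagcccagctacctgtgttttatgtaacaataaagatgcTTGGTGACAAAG
mmu_32336_PI428960544: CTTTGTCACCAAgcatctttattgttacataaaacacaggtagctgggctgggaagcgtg
mmu_19498_PI428960544: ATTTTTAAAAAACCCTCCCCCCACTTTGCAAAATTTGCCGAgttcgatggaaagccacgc
mmu_1343_PI428960544: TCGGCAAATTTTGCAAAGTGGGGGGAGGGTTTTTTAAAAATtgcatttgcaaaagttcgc

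Among the probes that carry microRNA hairpin sequence, those detected on at least 1 array and the one on the Mir92-1 hairpin are shown, with the bases of mature microRNA arms in capitals.
mmu_13386_PI428960544: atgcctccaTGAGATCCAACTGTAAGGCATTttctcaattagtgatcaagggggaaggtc
mmu_905_PI428960544: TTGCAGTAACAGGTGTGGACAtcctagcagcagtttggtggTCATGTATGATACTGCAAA
mmu_1748_PI428960544: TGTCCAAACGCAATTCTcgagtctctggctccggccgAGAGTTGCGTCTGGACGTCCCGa
mmu_32085_PI428960544: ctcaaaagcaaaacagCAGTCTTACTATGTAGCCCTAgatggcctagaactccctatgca
mmu_35819_PI428960544: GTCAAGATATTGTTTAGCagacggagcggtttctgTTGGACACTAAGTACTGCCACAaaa
mmu_923_PI428960544: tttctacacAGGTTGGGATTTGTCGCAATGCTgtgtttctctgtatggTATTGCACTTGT

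The probes with the smallest p-values in the 3 comparisons are shown with G and C in capitals, 4 to each comparison.
mmu_9957_PI428960544: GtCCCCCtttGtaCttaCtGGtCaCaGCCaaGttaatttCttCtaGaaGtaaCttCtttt
mmu_28309_PI428960544: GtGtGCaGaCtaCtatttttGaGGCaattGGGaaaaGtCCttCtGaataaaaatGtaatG
mmu_14955_PI428960544: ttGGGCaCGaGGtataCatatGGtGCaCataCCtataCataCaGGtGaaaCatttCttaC
mmu_29941_PI428960544: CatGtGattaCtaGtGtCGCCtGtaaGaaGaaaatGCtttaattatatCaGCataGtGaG
mmu_149_PI428960544: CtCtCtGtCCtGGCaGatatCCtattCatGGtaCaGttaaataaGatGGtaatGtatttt
mmu_16036_PI428960544: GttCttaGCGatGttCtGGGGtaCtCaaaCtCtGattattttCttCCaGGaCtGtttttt
mmu_17827_PI428960544: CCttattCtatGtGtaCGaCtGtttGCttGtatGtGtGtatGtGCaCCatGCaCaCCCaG
mmu_15982_PI428960544: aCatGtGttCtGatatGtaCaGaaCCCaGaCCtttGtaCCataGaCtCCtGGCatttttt
mmu_6645_PI428960544: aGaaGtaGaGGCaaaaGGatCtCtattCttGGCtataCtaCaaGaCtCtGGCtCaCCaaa
mmu_16072_PI428960544: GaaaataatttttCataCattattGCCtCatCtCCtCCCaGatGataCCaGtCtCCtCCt
mmu_11313_PI428960544: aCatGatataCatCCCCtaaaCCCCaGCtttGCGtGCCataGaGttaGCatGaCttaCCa
mmu_18118_PI428960544: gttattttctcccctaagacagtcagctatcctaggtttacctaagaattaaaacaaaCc
mmu_17141_PI428960544: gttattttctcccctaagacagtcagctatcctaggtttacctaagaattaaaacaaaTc
In the last lines the capital is instead the only base at which mmu_17141 and mmu_18118 differ, T59C counted from 1 at the first base of mmu_17141. Last come the 3 probes of widest range across arrays, again with G and C in capitals.
mmu_2823_PI428960544: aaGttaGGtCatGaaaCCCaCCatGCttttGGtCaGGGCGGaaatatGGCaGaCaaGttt
mmu_17214_PI428960544: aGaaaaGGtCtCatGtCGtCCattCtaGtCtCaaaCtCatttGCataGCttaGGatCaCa
mmu_12053_PI428960544: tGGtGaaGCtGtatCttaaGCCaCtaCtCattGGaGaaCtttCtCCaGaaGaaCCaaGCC

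A probe was taken as detected on an array when a share of at least 0.5 of its spots carried the scanner software's flag for signal well above background. By this measure 6827 mmu probes, 19.1%, were detected on all 9 arrays, 22889, 63.9%, on none, and 6087 on some arrays only. Among the 55385 probes of the other name series the shares were 33.3% on all arrays and 48.1% on none. Most mmu probes therefore gave no usable level in this tissue, and the description of change rests on a minority of them. In the other series 15955 probes have 2 spots on each array, 20 have 10 and the rest a single spot. Detection and levels are therefore not averaged alike in the mmu probes and the other series.

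The share of mmu probes detected was 27.2% ± 3.57 in mock, against 26.0% ± 3.60 after 6 Gy and 26.1% ± 0.782 after 12 Gy (SD, n = 3 each). The single arrays were at 23.4%, 30.5% and 27.7% in mock, 26.0%, 22.4% and 29.6% after 6 Gy and 27.0%, 25.7% and 25.6% after 12 Gy. The groups overlapped, and their means differed by less than the spread among the mock arrays. The other series gave 41.8% ± 4.62, 42.9% ± 3.30 and 43.2% ± 0.719 in the same order.

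The endings differed in how often their probes were detected, in the same order on every array. Probes ending PI428980890 were detected at 34.5% ± 3.34 in mock, 33.8% ± 4.17 after 6 Gy and 33.1% ± 1.21 after 12 Gy. Those ending PI428990136 were at 32.5% ± 4.31, 31.5% ± 3.39 and 31.8% ± 0.309. The large set ending PI428960544 was at 27.1% ± 3.56, 25.8% ± 3.62 and 26.0% ± 0.808. Probes ending PI428994341 were lowest, at 18.5% ± 2.11, 18.6% ± 2.85 and 17.8% ± 1.33 (SD, n = 3 each). Within each ending the 3 doses overlapped.

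Detection followed base composition. The median G and C content was 38.3% for the endings PI428960544 and PI428994341 and 43.3% for the other two, beside 43.3% for the other name series. Of mmu probes with 35% to under 40% G and C, 13.6% were detected on all 9 arrays, against 22.5% from 40% to under 45% and 26.1% at 45% or more. In the other series the shares in the same classes were 24.2%, 31.8% and 41.7%, so the mmu probes were detected less often at like composition.

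Within the ending PI428960544 detection also changed with the number in the name, a split chosen after the values were seen. Of the 6828 probes numbered 28000 or higher, 26.1% were detected on all arrays, against 16.8% of the 25164 numbered 2000 to under 28000 and 21.2% of the 1771 below 2000. Median G and C content was 38.3% in both of the larger blocks. What the numbers stand for is not given in the sources used here.

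Among mmu probes detected on all arrays the median level was 1.46, against 1.94 in the other series. The brightest, mmu_28767, stood at 11.05 to 11.50 over the 9 arrays. It was followed by mmu_7788 at 10.66 to 11.38, mmu_19007 at 10.53 to 10.92, mmu_33686 at 10.45 to 10.98 and mmu_18404 at 10.30 to 10.73. For these 5 the differences at 12 Gy from mock ran from -0.12 to 0.17, and none exceeded its standard error.

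Of the other endings, the brightest probe was mmu_9216_PI428990136, whose levels were 10.22, 9.83 and 8.38 on the mock arrays, 10.09, 9.82 and 9.68 after 6 Gy and 9.50, 10.05 and 9.85 after 12 Gy. Mock replicate 3 was the low array and the groups overlapped. Second for that ending, mmu_5074_PI428990136 stood at 8.69 to 9.53. The top pair ending PI428980890 were mmu_3224_PI428980890, at 8.31 ± 0.18 in mock against 7.68 ± 0.13 after 6 Gy and 7.68 ± 0.34 after 12 Gy, and mmu_3217_PI428980890, at 7.66 ± 0.24, 7.15 ± 0.10 and 7.18 ± 0.28 (SD, n = 3 each). For the first, every mock array was above every irradiated array, while for the second 12 Gy replicate 1 overlapped mock. Neither passed by limma, with adjusted p-values of 0.179 and 0.255 for 12 Gy minus mock. The top probe ending PI428994341, mmu_2331_PI428994341, reached a mean of only 5.31.

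Probes that share short stretches with each other were brighter. Of the 30679 mmu probes with no stretch of 16 bases in another mmu probe, 17.6% were detected on all arrays, against 25.7% of 4859 whose stretch is held by 2 to 9 mmu probes and 61.5% of 265 whose stretch is held by 10 or more. The median levels of those detected on all arrays were 1.36, 1.84 and 6.03. Such a probe can bind more than 1 transcript, so its signal cannot be given to a single RNA.

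The most widely held stretch, CTGTCCTGGAACTCAC, occurs in 27 mmu probes and in reverse complement in 2. All 27 were detected on all arrays, with mean levels from 5.23 to 9.72 and a median of 9.12. Their median difference from mock was -0.20 at 12 Gy and -0.17 at 6 Gy, and none of the 27 had an unadjusted p under 0.05 in any of the 3 comparisons. By array their median level was 9.58, 9.05 and 9.17 in mock, 9.06, 9.01 and 9.08 after 6 Gy and 9.16, 9.18 and 8.80 after 12 Gy. Mock replicate 1, alone on slide 1, was highest, and the groups otherwise overlapped. The second, CTGGTGTGTCTGAAGA, occurs in 26 mmu probes, of which 23 were detected on all arrays, at a median of 5.20.

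Not every shared stretch went with high detection. The stretch AAAACAAACAAACAAA is held by 18 mmu probes, of which 2 were detected on all arrays and 11 on none. The stretch CATTTGAAATGTAAAT is held by 17, of which 1 was detected on all arrays and 10 on none. The shares on all arrays were 11.1% and 5.88%, beside 19.1% of all mmu probes, and rest on few probes. The shares on none, 61.1% and 58.8%, were near the 63.9% of all mmu probes.

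Pairs of probes of near-identical sequence mostly gave close levels. There are 54 pairs of mmu probes with at most 5 substitutions between them, and in the 32 pairs with both members detected on all arrays the median gap in level was 0.16. In 4 of the 32 the gap was over 1, and it was largest between mmu_14127 and mmu_27011, at 3.24. The 3 such pairs of highest level, all in the family of CTGTCCTGGAACTCAC, join mmu_403, mmu_258 and mmu_586. Between mmu_403 and mmu_586 the only change is A1T, counted from the first base of mmu_403. Their levels were 9.19 to 9.76 and 9.14 to 9.79 over the 9 arrays. Among mmu probes that overlap by 50 bases or more the median gap was 0.20 over 38 pairs, rising to 0.32 at 35 to 49 shared bases and 0.91 at 20 to 34. With probes of other name series, the corresponding gaps were 0.17 over 223 pairs, 0.47 over 84 and 0.82 over 68. Overlapping probes share a target, so their values are not independent.

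Opposite strands of the same sequence were not interchangeable. The probe mmu_60 was detected on all 9 arrays, at 0.49, 1.03 and 1.11 on the mock arrays, 0.95, 1.26 and 1.19 after 6 Gy and 1.1, 0.98 and 1.0 after 12 Gy. Its exact reverse complement, mmu_32336, was detected on none, at -2.36, -3.36 and -2.93 on the mock arrays, -3.06, -2.64 and -3.28 after 6 Gy and -3.08, -2.98 and -3.03 after 12 Gy. No array brought the second probe near the first.

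A further 10 mmu probes are exact reverse complements of probes in the other series. In 1 of these pairs both strands were detected on all arrays, in 3 neither strand was detected on any array, and in 2 the partner was detected on all arrays and the mmu probe on none. The pair with both strands detected, mmu_28823 and its partner, had mean levels of 0.45 and 0.47. None of the 10 mmu probes was detected on all arrays where its partner was not.

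To place probes on known genes, each was matched in full against RefSeq promoter windows of GRCm38.p6, which run from 250 bases before to 50 after a start site. Only these windows were searched, so a match does not exclude other positions in the genome, and a probe without a match is not located here. Of the 35803 probes, 123 matched, 117 of them to 1 gene each. In 46 of the 117 the probe reads the strand of the gene and in 71 the opposite strand. Of the 383 probes of other series matched to 1 gene, 191 read the same strand and 192 the opposite. The 71 opposite-strand probes comprise 50 at protein-coding genes and 21 at genes annotated as long non-coding RNA, and the same-strand probes 23 of each kind.

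Most of the matched probes gave no signal on any array. On all 9 arrays, 14 of the 46 same-strand probes and 11 of the 71 opposite-strand probes were detected, 30.4% and 15.5%. All mmu probes were at 19.1%. Matched probes of the other series did not have this order, with 30.9% on the same strand and 35.9% on the opposite strand. No array detected 28 of the 46 same-strand mmu probes and 46 of the 71 opposite-strand ones. These shares, 60.9% and 64.8%, lie beside 63.9% of all mmu probes. None of the 32 genes in lists of p53 targets, proliferation genes and long non-coding RNAs known by name was matched by an mmu probe, so those groups were not analysed here. None of 42 markers of stomach and neighbouring cell types was matched either, so the tissue label was not checked. Only 25 of the 32 genes and 31 of the 42 markers have a window. The probes of the other series matched 2 of those genes and 0 of those markers. The lack of matches therefore does not show that the mmu probes leave these genes out.

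The matched probe of highest level was mmu_1672, on the strand opposite to Baz2b, a chromatin reader with a bromodomain, at chr2:60125758-60125817, upstream of the start. Its levels were 7.57, 7.94 and 8.41 on the mock arrays, 7.52, 7.79 and 8.13 after 6 Gy and 7.68, 8.20 and 7.59 after 12 Gy. The groups overlapped. Next was mmu_34579, on the strand of Ncapd3, a subunit of the condensin complex that compacts chromosomes, at chr9:27060221-27060280. It stood at 7.30 to 7.92 and shares a 16-base stretch with 19 other mmu probes, so its signal cannot be assigned to Ncapd3 alone.

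Upstream of Pfn1, which encodes the actin-binding protein profilin, 2 mmu probes read opposite strands of overlapping sequence. The one on the opposite strand, mmu_19498 at chr11:70654760-70654819, was detected on all arrays at 5.32, 5.29 and 5.32 on the mock arrays, 5.20, 5.24 and 5.51 after 6 Gy and 5.40, 5.18 and 4.85 after 12 Gy. The one on the strand of Pfn1, mmu_1343 at chr11:70654741-70654800, was detected on none, at -2.04, -1.61 and -1.93 on the mock arrays, -2.71, -2.38 and -1.87 after 6 Gy and -2.44, -2.33 and -3.11 after 12 Gy. The 2 probes share 41 bases, and the signal came from the strand opposite to the gene on every array. No change with dose passed for mmu_19498 (limma, Benjamini-Hochberg adjusted p = 0.663 at 12 Gy and 0.989 at 6 Gy against mock).

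The other matched probes of high level were on the strands of the uncharacterised genes Gm43305, Gm32026, Gm46398 and Gm35195 (mmu_22214, mmu_13347, mmu_33268 and mmu_24807), opposite to the uncharacterised Gm13715 (mmu_33054) and opposite to Pou5f1 and Tfap2a (mmu_1507 and mmu_30308). Pou5f1 encodes a transcription factor of pluripotent cells and Tfap2a one that acts in neural crest and epidermis. All were detected on all 9 arrays. Of these probes, mmu_13347, mmu_24807, mmu_22214, mmu_33268 and mmu_33054 hold a 16-base stretch that between 2 and 5 mmu probes have.

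At mmu_22214, on the strand of Gm43305 at chr14:54297587-54297646, levels were 6.68, 6.86 and 7.52 on the mock arrays, 7.69, 7.37 and 7.03 after 6 Gy and 7.96, 8.21 and 7.72 after 12 Gy. The 12 Gy arrays were above all mock arrays, and 6 Gy lay between and overlapped mock. The difference at 12 Gy from mock was 0.94 (SE 0.26, n = 3 and 3) and the adjusted p by limma was 0.147, so it did not pass. At mmu_1507, opposite to Pou5f1 at chr17:35508599-35508658, levels were 5.46, 5.11 and 5.37 on the mock arrays, 4.90, 4.64 and 4.42 after 6 Gy and 4.83, 4.43 and 4.59 after 12 Gy. All irradiated arrays were below all mock arrays, with differences of -0.69 (SE 0.19) at 12 Gy and -0.66 (SE 0.19) at 6 Gy (n = 3 each), and the limma adjusted p-values of 0.147 and 0.206 did not pass. With slide as a fixed block the 12 Gy difference was -0.28, and within slide 2 the 6 Gy difference was -0.47.

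Other matched probes with the smallest p in a comparison also missed the adjusted threshold. On the opposite strand of the uncharacterised Gm52299, mmu_32805 at chr17:74276013-74276072 stood at 1.89 ± 0.15 in mock against 1.33 ± 0.12 after 6 Gy and 1.28 ± 0.23 after 12 Gy. On the strand of Tnfrsf4, a costimulatory receptor of T cells, mmu_11015 at chr4:156013490-156013549 was at 2.47 ± 0.13, 3.0 ± 0.05 and 2.80 ± 0.14 (SD, n = 3 each). In both, the mock arrays did not overlap either irradiated group. Near the limit of detection, mmu_840_PI428980890, on the strand of the uncharacterised 4930520O04Rik, had a difference at 6 Gy from mock of 0.54 (SE 0.30).

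The matched probes with the smallest p between the 2 doses had p-values that adjusted to 1. They were mmu_22214, described above, with a difference at 12 Gy from 6 Gy of 0.60, mmu_10382_PI428990136, opposite to Armh3, at -1.13, mmu_18347, on the strand of Zfp827, at -0.41, and mmu_17820, opposite to Dhps, the enzyme that begins hypusine synthesis on a translation factor, at 0.50. For mmu_17820 the direction turned with slide as a fixed block, to -0.10, and its difference at 12 Gy from mock went from 0.63 to -0.30.

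MicroRNAs are cut from hairpins in longer transcripts, and a probe on the hairpin can report the precursor but not the mature strand apart from it. A total of 11 mmu probes carry at least 30 bases of a RefSeq hairpin, on the hairpin's own strand. Of these, 4 were detected on all arrays and 6 on none, 36.4% and 54.5%, beside 19.1% and 63.9% of all mmu probes. Those on none lie on Mir196a-1, Mir196a-2, Mir10a, Mir137, Mir181b-1 and Mir92-1. The Mir92-1 hairpin, at chr14:115044427-115044506, gives miR-92a, and its probe mmu_923 lay at -3.36 to -2.65.

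The brightest hairpin probe, mmu_13386, carries 30 bases of Mir3471-1, at chr4:10845500-10845630, with the whole mature arm, and its levels were 5.13, 5.06 and 5.21 on the mock arrays, 4.90, 4.80 and 4.97 after 6 Gy and 5.05, 4.86 and 4.65 after 12 Gy. Its other 30 bases are not those of the hairpin. On Mir6516, at chr11:117077348-117077457, mmu_905 was at 1.38, 2.01 and 2.32 on the mock arrays, 1.62, 2.07 and 1.56 after 6 Gy and 1.40, 1.85 and 2.03 after 12 Gy. The groups overlapped. On Mir219a-1, at chr17:34024983-34025092, mmu_1748 was at 0.27, 0.63 and 0.86 on the mock arrays, 0.67, 0.10 and 0.33 after 6 Gy and 0.23, 0.43 and 0.05 after 12 Gy, with the groups again overlapping. That probe also carries 57 bases of Mir219c in the opposite orientation. On Mir1191, at chr7:27205536-27205655, mmu_32085 lay near the limit of detection at -0.47 to -0.01.

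On Mir3069, at chr12:105031077-105031141, mmu_35819 was detected on 7 arrays, at 0.54, 0.62 and 0.22 on the mock arrays, -1.43, -0.06 and -1.51 after 6 Gy and -1.39, -0.80 and -0.43 after 12 Gy. The 3 mock arrays were above all 6 irradiated arrays. The difference was -1.33 (SE 0.39, n = 3 and 3) at 12 Gy and -1.46 (SE 0.39, n = 3 and 3) at 6 Gy. The irradiated means lay near the limit of detection, with 2 of 3 arrays detected in each group, and with normexp at an offset of 50 the differences were -0.58 and -0.60. Neither passed, with limma adjusted p-values of 0.156 and 0.192.

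To ask whether irradiation changed the mmu probes, limma was fitted to the 32004 probes of all series that were detected on all 3 arrays of at least 1 group. That filter kept 9056 mmu probes: 8480 ending PI428960544, 379 ending PI428990136, 115 ending PI428980890 and 82 ending PI428994341. A probe that passed only through its high group had to differ, so counts over this set describe it and give no support. No probe passed an adjusted p of 0.05 in any comparison, in any series (0% of all probes tested in each of the 3 comparisons). The moderated F test over the 3 groups also called 0. In it 1350 of 9056 mmu probes, 14.9%, had an unadjusted p under 0.05, against 14.3% of all probes tested.

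At 12 Gy against mock, an unadjusted p under 0.05 was reached by 758 mmu probes with a higher level and by 951 with a lower one, 8.37% and 10.5% of those tested. Over all probes tested the shares were 11.9% higher and 5.78% lower. On this scale the mmu probes had a smaller share higher and a larger share lower than the array as a whole. The split depended on scaling: with the 75th percentile taken over the probes detected everywhere it was 382 higher and 1486 lower, with their median 416 and 1397, with quantile normalization 554 and 1211, and in the authors' values 556 and 1209. These 4 scales moved the median difference over all probes tested from 0.12 to between -0.02 and 0.03. With normexp background correction at an offset of 50 it turned to 908 higher and 713 lower, and without the filter it was 847 and 2638. Without the array at 12 Gy replicate 2 it was 436 and 666, and without 12 Gy replicate 3 it turned to 797 higher and 716 lower. With slide as a fixed block the counts fell to 396 and 378, and as a random block to 422 and 539.

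The 2 probes with the smallest p in each direction at 12 Gy did not pass (Benjamini-Hochberg adjusted p = 0.128 by limma for each). For mmu_9957 the levels were 2.02, 1.53 and 1.66 on the mock arrays, 2.40, 2.43 and 2.72 after 6 Gy and 2.93, 3.0 and 3.08 after 12 Gy. Every irradiated array was above every mock array and the 12 Gy arrays were highest, with a difference from mock of 1.26 (SE 0.19, n = 3 and 3). The median SD between its spots on an array was 0.47, against 0.07 as the median for mmu probes of mean level 2 to 4. For mmu_28309 the levels were -2.04, -2.36 and -2.74 on the mock arrays, -1.71, -2.01 and -1.80 after 6 Gy and -0.96, -0.41 and -1.07 after 12 Gy. It was detected on the 3 arrays at 12 Gy only, and no fold is given because its 12 Gy mean of -0.82 lies below the mock arrays' mean limit of detection of -0.75.

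In the other direction, mmu_18118 was at -0.30, -0.95 and -0.69 on the mock arrays, -1.28, -1.90 and -2.07 after 6 Gy and -3.12, -2.60 and -2.55 after 12 Gy. It was detected in mock only, was at least 1.17-fold lower at 12 Gy, and had means of -0.65 ± 0.33 and -2.76 ± 0.32 (SD, n = 3 each). Here and below such a bound takes the brighter group's mean over a floor for the dim arrays, which is the lowest level among probes with every spot well above background, or the level of the probe itself where that is greater. Its neighbour by 1 base, mmu_17141, was also detected in mock only, but its levels of 0.08, -2.11 and -1.12 on the mock arrays, -1.97, -1.57 and -1.77 after 6 Gy and -1.43, -1.82 and -3.04 after 12 Gy spread widely in mock, and its median SD between spots was 0.49. For mmu_14955, also detected in mock only, the means were -0.32 ± 0.37 and -2.14 ± 0.41, at least 1.47-fold lower. With slide as a fixed block, where 6 Gy replicate 3 is the only link of the 12 Gy arrays to mock, the difference of mmu_9957 was 1.1. The other 3 kept their sign under it, but no size is given because 1 group of each is at background, and with normexp at an offset of 50 the differences of mmu_28309, mmu_18118 and mmu_14955 were 0.40, -0.43 and -0.57.

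A single probe passed in 1 alternative only, a fit on the 6 arrays of mock and 12 Gy (adjusted p = 0.0207 by limma, against a smallest adjusted p between 0.058 and 0.5 over the other alternatives). This was mmu_34723, singled out after its values were seen. Its levels were -1.68, -1.81 and -1.72 on the mock arrays, -0.48, -1.69 and 0.55 after 6 Gy and 0.79, 0.67 and 0.74 after 12 Gy. The 12 Gy arrays lay close together while the 6 Gy arrays spread widely (SD 0.06 and 1.12), and the fit on 2 groups leaves the 6 Gy spread out. Among the arrays other than 12 Gy it was highest on 6 Gy replicate 3, which shares slide 3 with the 12 Gy arrays. It was not detected in mock, and at 12 Gy it was at least 2.81-fold higher.

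At 6 Gy against mock, 518 mmu probes with a higher level reached an unadjusted p under 0.05, as did 835 with a lower one, 5.72% and 9.22%. Over all probes tested the shares were 11.5% higher and 4.62% lower. With the 75th percentile taken over probes detected everywhere it became 123 higher and 1498 lower, with their median 151 and 1372, and with quantile normalization and in the authors' values 310 and 1076, as the median over all probes tested went from 0.15 to between -0.03 and 0.04. Without the filter it was 495 and 2330. Within slide 2, which holds 2 arrays of each group, 753 were higher and 1158 lower, and with slide as a fixed block 805 and 737. Leaving out 1 array moved the number with a higher level to 326 without 6 Gy replicate 1, 360 without mock replicate 2 and 806 without mock replicate 1. This comparison and the one at 12 Gy share the mock arrays.

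For mmu_29941 the levels were -0.01, 0.15 and 0.39 on the mock arrays, 1.27, 1.1 and 1.03 after 6 Gy and 1.17, 1.17 and 1.03 after 12 Gy. All irradiated arrays were above all mock arrays, with a difference at 6 Gy of 0.96 (SE 0.17, n = 3 and 3). For mmu_149, -0.25, 0.05 and -0.38 on the mock arrays, 0.77, 0.65 and 0.81 after 6 Gy and 0.57, 0.62 and 0.50 after 12 Gy, the difference was 0.94 (SE 0.17, n = 3 and 3). The 2 lower probes, mmu_16036 and mmu_17827, were detected in mock only. Their levels were -0.25, -0.32 and -0.11 on the mock arrays, -1.53, -2.0 and -1.96 after 6 Gy and -1.43, -1.04 and -1.26 after 12 Gy for mmu_16036 and -0.25, -0.95 and -0.44 on the mock arrays, -2.73, -2.63 and -3.45 after 6 Gy and -2.31, -3.14 and -2.18 after 12 Gy for mmu_17827, or at least 1.54-fold and 1.24-fold lower at 6 Gy. None of the 4 passed (adjusted p = 0.189 by limma for each). Within slide 2 the differences of mmu_29941 and mmu_149 were 0.92 and 0.87, and the other 2 kept their sign. With normexp at an offset of 50 the differences of mmu_29941, mmu_149, mmu_16036 and mmu_17827 were 0.53, 0.40, -0.43 and -0.53.

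At 12 Gy against 6 Gy, 180 mmu probes with a higher level and 186 with a lower one reached an unadjusted p under 0.05, 1.99% and 2.05%. Over all probes tested the shares were 1.4% higher and 1.91% lower. Single arrays moved these counts: without 6 Gy replicate 3 they were 688 and 380, without 12 Gy replicate 1 they were 110 and 243 and without 12 Gy replicate 3 they were 252 and 127, while without 6 Gy replicate 1 they were 119 and 107 and without 6 Gy replicate 2 they were 84 and 98. Taking the 75th percentile over probes detected everywhere gave 235 and 150, and normexp at an offset of 50 gave 155 and 100. Over the mmu probes tested, 6 Gy replicate 3 correlated with 12 Gy replicates 1 and 2 at 0.984 or below, against 0.958 with 12 Gy replicate 3 and 0.964 and 0.952 with the other 6 Gy arrays.

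For mmu_15982 the levels were -1.87, -1.13 and -1.38 on the mock arrays, -2.06, -1.59 and -2.06 after 6 Gy and -0.08, -0.46 and -0.02 after 12 Gy. For mmu_6645 they were 1.0, 0.91 and 0.92 on the mock arrays, 0.78, 1.16 and 0.94 after 6 Gy and 1.98, 1.91 and 2.06 after 12 Gy. In both, the 12 Gy arrays were above all 6 others. For mmu_15982, detected on 1 of the 3 arrays at 6 Gy and on 1 in mock, no size is given because its 6 Gy mean of -1.90 lies below the limit of detection. For mmu_6645 the difference from 6 Gy was 1.02 (SE 0.16, n = 3 and 3). The lower probes were mmu_16072, at 0.76, 0.47 and 0.84 on the mock arrays, 0.77, 0.79 and 0.79 after 6 Gy and 0.0, -0.23 and -0.49 after 12 Gy, and mmu_11313, at 0.86, 1.33 and 1.11 on the mock arrays, 1.33, 1.57 and 1.02 after 6 Gy and 0.34, 0.44 and 0.31 after 12 Gy, whose differences were -1.02 (SE 0.18, n = 3 and 3) and -0.94 (SE 0.20, n = 3 and 3). The 4 adjusted p-values by limma were 1. With normexp at an offset of 50 the differences of mmu_15982, mmu_6645, mmu_16072 and mmu_11313 were 0.49, 0.72, -0.46 and -0.53, and within slide 3, where 6 Gy is a single array, the 4 kept their sign.

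A description that does not use the groups takes the 6827 mmu probes detected on all 9 arrays. Their median difference from mock was 0.02 at 12 Gy and 0.05 at 6 Gy, against 0.14 and 0.20 over 18445 probes of the other series. The gap between the 2 sets was -0.12 and -0.15, and since a change of array scale shifts both sets alike, it does not depend on the percentile used. Under the 24 settings run, the main one included, for 12 Gy it ran from -0.32 to -0.07. Under the 25 for 6 Gy it ran from -0.22 to -0.11. Many of these settings cannot change the gap, since the set of probes is fixed. Among them are the percentile used, the filter, the replicate block and leaving out an array of the dose not compared. They left it at -0.12 and -0.15, so the number of settings adds no support.

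On single arrays, the median level of these mmu probes minus that of the other series was -0.38, -0.40 and -0.35 in mock, -0.52, -0.58 and -0.47 after 6 Gy and -0.38, -0.48 and -0.60 after 12 Gy. Each 6 Gy array was below each mock array, while 12 Gy replicate 1 lay among the mock arrays. The mean was -0.38 ± 0.03 in mock, against -0.52 ± 0.06 after 6 Gy and -0.49 ± 0.11 after 12 Gy (SD, n = 3 each). Only the gap can be read without the scale: on the scale used the mmu median differed from mock by 0.02 at 12 Gy, while with the 75th percentile over probes detected everywhere it differed by -0.11 and the other series by 0.01.

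Composition and level moved with these differences. At 12 Gy, mmu probes with 35% to under 40% G and C had a median difference of 0.09, those from 40% to under 45% of -0.02 and those at 45% or more of -0.01. The other series fell from 0.26 to 0.17 and 0.09 in the same classes, so the mmu probes were lower in each. By mean level, mmu probes below 0 had a median difference of -0.13 and those from 0 to 2 of 0.02. Those from 2 to 4 were at 0.09 and those above 4 at 0.02. In the other series the values were -0.01, 0.12, 0.18 and 0.17 in the same order. The part of composition and level in the result was not tested.

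The blocks of name numbers differed too. Probes numbered 28000 or higher had a median difference of 0.09 at 12 Gy and 0.12 at 6 Gy, while those from 2000 to under 28000 were at -0.01 and 0.03. Of the tested probes in the first block, 10.9% had a higher level and 5.83% a lower one at an unadjusted p under 0.05 after 12 Gy, and in the second 7.78% and 12.5%, beside the 11.9% and 5.78% over all probes. By ending, the median difference at 12 Gy was 0.06 over 285 probes ending PI428990136, -0.08 over 94 ending PI428980890 and -0.09 over 61 ending PI428994341.

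Among mmu probes, detection in 1 group only was mostly detection in mock. On all 3 mock arrays and on no irradiated array, 67 mmu probes were detected, 0.187% of them, while 0.0833% of all probes on the array had this pattern. The mmu probes make up 67 of the 76 behind that share. For 6 Gy only the mmu count was 1 (17 without 6 Gy replicate 2), beside 0.00877% of all probes, and for 12 Gy only 3 (38 without 6 Gy replicate 3), beside 0.0164%. The other series had 9 for mock only (0.0162%), 7 for 6 Gy only and 12 for 12 Gy only. In the reverse pattern, detected on all arrays but those of 1 group, 9 mmu probes lacked detection in mock. That is 0.0251% of them, while 0.0373% of all probes on the array had this pattern. For 6 Gy the mmu count was 1 (0.00279%, beside 0.00219% of all probes) and for 12 Gy 2 (0.00559%, beside 0.00768%).

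The 67 mock-only probes lay at the limit of detection. Their median levels were -0.23, -0.93 and -0.69 in mock, -1.45, -1.62 and -1.68 after 6 Gy and -1.43, -1.75 and -1.66 at 12 Gy, where the lowest level of a probe with every spot well above background was -1.14 to -0.39. In 52 of the 67 the lowest mock array was above the highest irradiated one. The probes were chosen by detection in mock only, so this order and that of the medians follow largely from the choice. The count depended most on mock replicate 1, which lies alone on slide 1: without that array the count was 278, and without mock replicate 3 it was 109. Of the 67, 62 carry numbers under 28000 and the ending PI428960544, and 3 have another ending, PI428994341.

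Among them the largest gaps between the groups were at mmu_17827, above, and mmu_6950, at -0.25, -0.40 and 0.03 on the mock arrays, -1.60, -1.35 and -2.24 after 6 Gy and -1.26, -2.06 and -2.36 after 12 Gy. In mmu_6950 the mock arrays were at least 1.59-fold above 12 Gy and 1.57-fold above 6 Gy. The 12 Gy-only probes with the largest gaps were mmu_28309, above, and mmu_20913, at -1.08, -1.67 and -1.63 on the mock arrays, -1.23, -1.07 and -1.18 after 6 Gy and -0.88, -0.90 and -0.65 after 12 Gy, and the 6 Gy-only probe was mmu_34666, at -0.85, -2.25 and -1.17 on the mock arrays, -0.59, -1.05 and -1.04 after 6 Gy and -1.40, -1.77 and -1.80 after 12 Gy. In mmu_34666 mock replicate 1 was within the 6 Gy levels.

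Some probes varied widely between arrays of the same dose. Over the 9 arrays, 31 of 9056 tested mmu probes spanned 4 or more on the log2 scale, 0.342%. The share was 0.95% in the other series, where most probes have a single spot rather than an average of spots. The widest, mmu_2823, was at 2.81, 4.22 and 5.72 on the mock arrays, 1.58, 3.64 and -1.87 after 6 Gy and -2.66, -2.20 and 4.46 after 12 Gy. Then came mmu_17214, at 1.53, 1.92 and 4.54 on the mock arrays, -0.49, 2.41 and -3.35 after 6 Gy and -3.11, -2.44 and 2.88 after 12 Gy, and mmu_12053, at 0.86, 2.35 and 3.99 on the mock arrays, -0.17, 2.07 and -3.36 after 6 Gy and -3.15, -3.03 and 2.93 after 12 Gy. In all 3 the low arrays were 6 Gy replicate 3 and 12 Gy replicates 1 and 2, and 12 Gy replicate 3 was as high as mock arrays.

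The same arrays were low in some of the other wide-ranging probes. Of the 31, 13 had a correlation above 0.9 with mmu_2823 over the 9 arrays, mmu_2823 included, and the nearest were mmu_31514 at 0.998, mmu_12053 at 0.994 and mmu_21108 at 0.991. All points come from the same 9 arrays and 3 slides. Their median was 0.86, 1.78 and 3.11 in mock, -0.28, 1.42 and -2.81 after 6 Gy and -2.66, -2.20 and 2.04 after 12 Gy. In the other direction, 10 of the 31 had a correlation below 0 with mmu_2823, the lowest being mmu_19 at -0.79. The low arrays of mmu_2823 all lie on slide 3, which also holds 12 Gy replicate 3, where these probes were high.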

How the data were processed

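Stomach RNA of 9 samples was labelled with Cy3 and hybridised singly. Per the file headers, the deposited scanner files hold spot intensities made by Agilent Feature Extraction, version 10.7.1.1 per the submitters' processing notes, as background-subtracted and detrended signal with flags. The authors' deposited table holds values on a log2 scale with no stated method. Its column medians are all 3.99 and its columns correlate with the scanner values of the same arrays at 0.998 or more, and it gave nearly the counts of quantile normalization applied here (310 and 1076 at 6 Gy in both).

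From the scanner intensities, log2 processed signal minus log2 of the array's 75th percentile (49.0 to 76.7) was taken over 143286 non-control spots, without the 12 to 30 outlier spots per array, and averaged per probe. No spot was saturated. The 2 spots of a probe had the same flag in 94.8% to 96.2% of cases. limma 3.58.1 in R 4.3.3 was fitted to all 9 arrays with no covariates, over probes detected on all 3 arrays of a group, and p-values were adjusted by Benjamini-Hochberg over all 32004 probes. The script was tested on simulated data. With 3 arrays a group, their number limits the precision.

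The members and lists were chosen with earlier results of these data known. Named probes are the 2 of smallest p in each direction per comparison, the 5 brightest and the brightest of the smaller endings, the 3 of widest range, the 2 of largest gap per pattern of detection in 1 group, the 3 brightest look-alike pairs, and, among probes matched to a gene, the 10 brightest and the 2 of smallest p in each direction. Other probes named for a sequence feature were chosen after their values were seen. Alternatives changed background correction, scaling, filter, variance model, slide and replicate block, threshold and the arrays used. Those within slides and leaving out arrays for detection in 1 group were added after the data were seen. Of same-numbered arrays, 3 of 9 pairs had correlated deviations above 0.1, and the replicate numbers were therefore not used to pair arrays. A planned match of translated probes to proteins was not run.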

Additional observations from a re-analysis of the deposited data

How the results depend on the processing

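No mmu probe passed the adjusted threshold in limma in any comparison or in the F test, and the count stayed at 0 under every alternative run but 1: with only the arrays of mock and 12 Gy in the fit, 1 passed. With the replicate block it was 0 in all 3 comparisons and in the F test. At an unadjusted p under 0.05 the counts were 1709 at 12 Gy and 1353 at 6 Gy from mock and 366 between the doses. These are 18.9%, 14.9% and 4.04% of the mmu probes tested, against 17.7%, 16.1% and 3.31% over all probes tested. Requiring every spot above background lowered the detected shares, in the order mock, 6 Gy, 12 Gy, to 22.7%, 21.7% and 22.0% of all mmu probes, 22.5%, 21.5% and 21.9% for PI428960544, 29.0%, 28.3% and 28.1% for PI428980890, 27.2%, 26.7% and 27.1% for PI428990136 and 15.4%, 15.4% and 15.3% for PI428994341. The median level became -1.72, -1.86 and -1.82 with the 75th percentile over probes detected everywhere, 1.21, 1.11 and 1.13 with quantile normalization, 0.81, 0.84 and 0.87 with normexp, and -2.33, -2.56 and -2.59 over all mmu probes. The median difference at 12 Gy from mock became -0.11, -0.074 and -0.10 with that percentile, quantile normalization and all mmu probes, and at 6 Gy -0.14, -0.070 and -0.070. Detection in 1 group only gave 0 for 6 Gy and 5 for 12 Gy when every spot was required. Leaving out 1 array gave 67 to 278 for mock, 1 to 17 for 6 Gy and 3 to 38 for 12 Gy, where dropping an array also drops a condition that a probe must meet. For mmu_17820 the direction turned with slide as a fixed block, to -0.30 at 12 Gy from mock and -0.10 between the doses, and to -0.10 within slide 3. The cause was not tested. The main results were the calls, detected shares, median levels, median differences and detection in 1 group. For them 181 alternatives stayed close to the main value and 53 moved. Part of this tally was fixed in advance. A detected share or median level counted as close when within 1 SD of its 3 arrays. Leaving out 1 of 3 arrays cannot move a mean that far. The counts of calls at an unadjusted p were entered as moved. The tally therefore gives no support. The other values were counts at an unadjusted p and differences of named probes. There 661 alternatives kept a similar count or the same direction, 35 moved a count and 3 reversed a difference. Levels near background limit what can be said of most mmu probes.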
